A study of Rattus norvegicus with 9 samples.

Results

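miR-142 is the miRNA of white blood cells in general, and its hairpin gives 2 mature miRNAs, miR-142-3p and miR-142-5p. Both rows, rno-miR-142-3p and rno-miR-142-5p, were found by name in a table of small RNA sequencing of rat cornea, as 2 of its 765 mature miRNAs. The libraries came from 3 allografts, 3 isografts and 3 normal corneas, each labelled Wistar and 6 weeks of age. By the meaning of the words, an allograft comes from a genetically different donor and an isograft from a matched one. The labels do not state the donor strain, the time after surgery, the state of the grafts or whether each library is a different animal. The p-values therefore measure the spread between these libraries, which may be technical. A library is called by its group with the number of its title (12, 34 or 56).

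A miRNA hairpin is cut into a short duplex, and either strand can be loaded into an Argonaute protein, where its seed (bases 2 to 8) pairs with matching sites in target mRNAs. The miR-142 gene is transcribed across the blood cell lineages, in myeloid cells and lymphocytes alike, and mice without it have defects in several of them. The normal cornea has no blood vessels and holds few resident leukocytes, while leukocytes enter a cornea that is wounded or rejected. In bulk tissue, more leukocytes and more miR-142 per leukocyte cannot be told apart.

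The sequences are shown because the arms are read here as separate miRNAs with separate seeds. They are RefSeq's, from the rat assembly GRCr8, in which Mir142 lies on the plus strand of chromosome 10. Capitals mark the seed in the mature miRNAs and the positions of both arms in the hairpin.
miR-142-3p: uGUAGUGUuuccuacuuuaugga
miR-142-5p: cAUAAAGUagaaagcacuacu
Mir142 hairpin: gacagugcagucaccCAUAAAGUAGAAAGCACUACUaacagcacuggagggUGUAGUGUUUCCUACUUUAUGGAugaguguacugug
The 5p arm takes bases 16 to 36 of the 87 and the 3p arm bases 52 to 74, with 15 bases between them. In the fold predicted by RNAfold, 19 bases of the 5p arm pair with the 3p arm. The seeds pair with the mRNA letters ACACUAC for miR-142-3p and ACUUUAU for miR-142-5p. Of the listed miRNAs, 690 had a RefSeq sequence, and among them no other shared bases 2 to 8, or even 2 to 7, with either arm. In the gene table of that assembly, Mir142 overlaps the extent of Tspoap1. The next protein-coding gene after Mir142 is Mpo, which encodes the myeloperoxidase of neutrophils.

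Values are RPM, read numbers relative to each library's total. That total was 11004676 to 11005270 reads in allografts, 11001459 to 12153889 in isografts and 11007056 to 11013517 in normal corneas. The listed miRNAs held 26.4% to 46.3% of it in allografts, 36.8% to 54.5% in isografts and 46.6% to 65.6% in normal corneas. The epithelial miRNA miR-184 was the most abundant marker of cornea in the normal libraries, at 214371 to 339752 RPM. Isograft 12 and allograft 34 had the lowest shares of listed miRNAs in their groups.

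miR-142-3p was a middling to low miRNA in the normal cornea and one of the more abundant in allografts. It stood at 443, 465 and 667 RPM in allografts 12, 34 and 56, at 11.3, 47.5 and 34.7 RPM in isografts 12, 34 and 56, and at 3.995, 1.64 and 2.82 RPM in normal corneas 12, 34 and 56. The 3 groups did not overlap, and isograft 12 was the lowest graft. In the same order of numbers, miR-142-5p stood at 274, 295 and 542 RPM in allografts, at 13.1, 34.3 and 33.5 RPM in isografts and at 4.09, 3.36 and 3.09 RPM in normal corneas. For both arms allograft 56 was the highest library and isograft 12 the lowest of the isografts. By abundance, miR-142-3p took places 55 to 58 in allografts, 149 to 185 in isografts and 266 to 313 in normal corneas, and miR-142-5p places 65 to 68, 165 to 181 and 262 to 285 in these groups.

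**Figure D1:**
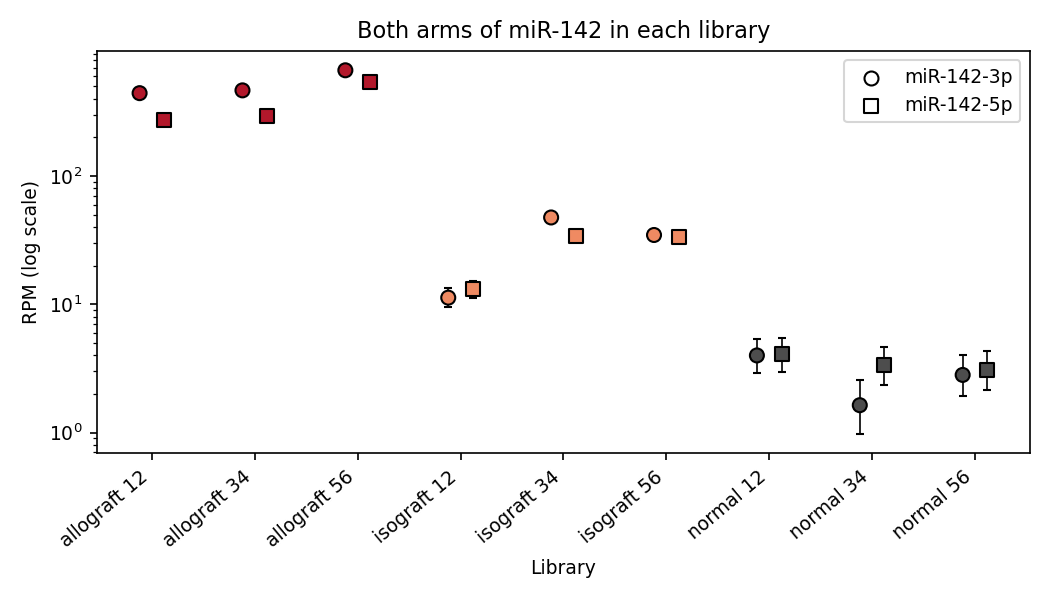
RPM of miR-142-3p (circles) and miR-142-5p (squares) in each library, on a log scale, coloured by group. Bars are 95% exact Poisson intervals of the reads and cover counting error only. The allografts lie between 274 and 667 RPM, the isografts between 11.3 and 47.5 and the normal corneas between 1.64 and 4.09.

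The values rest on very different numbers of reads. miR-142-3p had 4873 to 7345 reads per library in allografts, 137 to 523 in isografts and 18 to 44 in normal corneas. miR-142-5p had 3016 to 5964 reads in allografts, 159 to 377 in isografts and 34 to 45 in normal corneas. In normal 34, the lowest value of the series, the 18 reads of miR-142-3p give a 95% exact Poisson interval of 0.969 to 2.58 RPM. Such intervals cover counting error only, since copies of 1 molecule made by PCR count as separate reads. Within groups, the highest library of miR-142-3p was 1.51 times the lowest in allografts, 4.22 times in isografts and 2.44 times in normal corneas.

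Allografts were compared with normal corneas to measure the change where the donor differs. miR-142-3p averaged 525 ± 124 RPM in allografts and 2.82 ± 1.18 RPM in normal corneas (SD, n = 3 each), a ratio of means of 187. Its lowest allograft was 111 times its highest normal cornea. On the log2(RPM + 1) scale, which understates the change of low miRNAs, it rose by 7.13 (SE 0.45, limma over all miRNAs tested, Benjamini-Hochberg adjusted p = 3.2e-13). miR-142-5p averaged 370 ± 149 RPM in allografts and 3.51 ± 0.515 RPM in normal corneas (SD, n = 3 each), a ratio of 105, and rose by 6.30 (SE 0.42, limma adjusted p = 7.6e-13). Both arms were past the threshold in a comparison where 23.1% of the 281 miRNAs tested rose, 47.3% changed in either direction and 29.9% were higher with no overlap between groups. They were the largest and the second largest of the 281 log2 fold changes.

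Allografts were compared with isografts to set the graft of a different donor against a matched one. miR-142-3p averaged 31.2 ± 18.4 RPM in isografts (SD, n = 3), so the ratio of means was 16.8. It was higher in allografts by 4.22 on the log2 scale (SE 0.45, limma adjusted p = 2.2e-08). miR-142-5p averaged 27.0 ± 12.02 RPM in isografts (SD, n = 3), a ratio of 13.7, and was higher in allografts by 3.78 (SE 0.42, limma adjusted p = 5.0e-08). In this comparison 13.5% of the miRNAs tested rose, 34.5% changed in either direction and 16.4% were higher without overlap. The arms took places 2 and 4 by log2 fold change.

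Isografts were compared with normal corneas to measure the change where the donor is matched. miR-142-3p was higher in isografts by 2.91 (SE 0.45, limma adjusted p = 1.0e-05), with a ratio of means of 11.1. miR-142-5p was higher by 2.52 (SE 0.42, limma adjusted p = 2.4e-05), with a ratio of 7.68. Here 16.7% of the miRNAs tested rose, 21.4% changed in either direction and 22.4% were higher without overlap, and the arms took places 10 and 16 by log2 fold change. Isograft 12 bears on the size of both comparisons that use isografts. Without it, the change of miR-142-3p was 3.63 for allografts over isografts and 3.50 for isografts over normal corneas. Each pair of these comparisons shares a group, so they are not independent of one another.

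**Figure D2:**
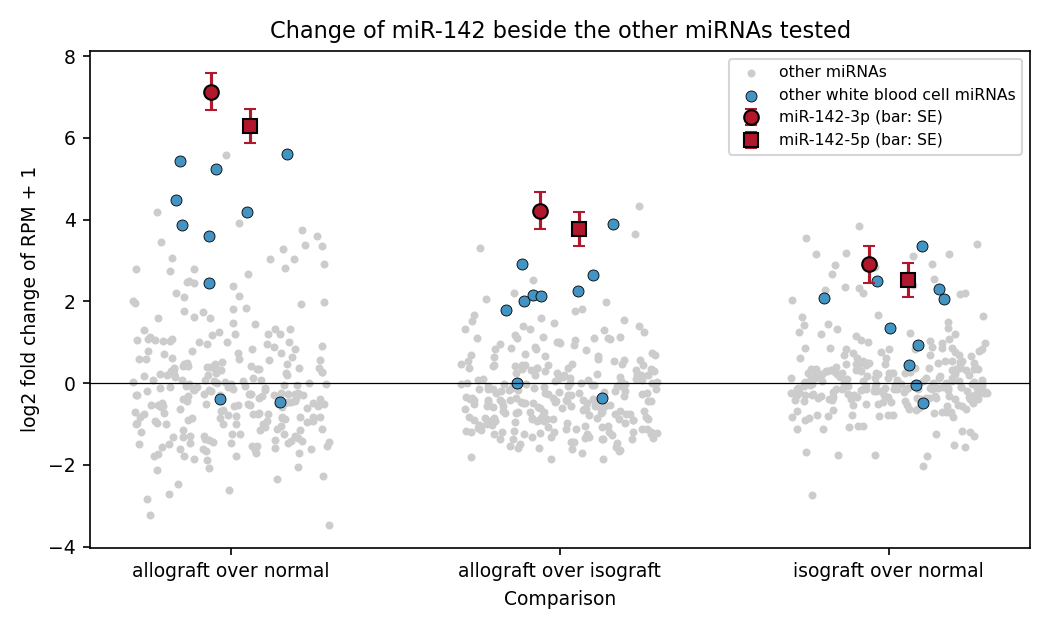
Log2 fold change of RPM + 1 for the 281 miRNAs tested, by comparison: miR-142-3p (red circle) and miR-142-5p (red square) with their SE, the 10 other white blood cell miRNAs tested (blue) and the rest (grey, spread sideways for legibility). The arms lie at 7.13 and 6.30, at 4.22 and 3.78, and at 2.91 and 2.52, from left to right.

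Other scalings changed the size of these differences and, in the 3 tried, not their direction. Over the miRNAs tested, the median log2 fold change for allografts over normal corneas was -0.14 in RPM, -0.56 in RPM without miR-184, -0.02 with the median of ratios and 0.54 when each library was scaled to the sum of its listed miRNAs. In RPM without miR-184, miR-142-3p rose by 6.83 for allografts over normal corneas and by 4.08 for allografts over isografts. With RPM recomputed over the listed miRNAs alone, miR-142-3p averaged 1502 ± 234 in allografts, 63.0 ± 29.2 in isografts and 5.23 ± 3.08 in normal corneas (SD, n = 3 each). Allografts were then 287 times normal corneas and 23.9 times isografts by the ratio of means.

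The ratio of the arms was read per library, from the recovered reads. The 3p arm had 1.62, 1.58 and 1.23 reads per 5p read in allografts 12, 34 and 56, 0.862, 1.39 and 1.04 in isografts 12, 34 and 56, and 0.978, 0.486 and 0.912 in normal corneas 12, 34 and 56. The 3p arm was thus the larger in every allograft and in 2 of 3 isografts, and the smaller in every normal cornea. The 95% exact binomial intervals lay above 1 in the 3 allografts, from 1.54 to 1.69, from 1.51 to 1.65 and from 1.19 to 1.27. Among the isografts, that of isograft 34 (1.21 to 1.59) lay above 1. Those of isograft 12 (0.681 to 1.09) and isograft 56 (0.895 to 1.20) included 1. Among the normal corneas, those of normal 12 (0.630 to 1.52) and normal 56 (0.542 to 1.53) included 1, and that of normal 34 (0.261 to 0.876), with 55 reads of both arms, did not. Allograft 56 stood below the other allografts by more than counting error.

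**Figure D3:**
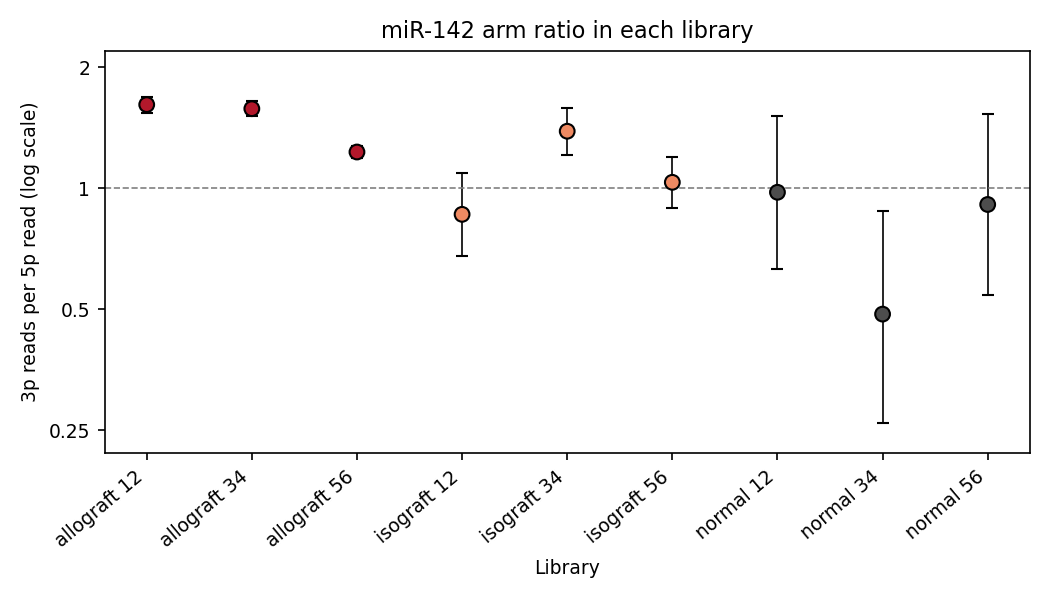
Reads of miR-142-3p per read of miR-142-5p in each library, on a log scale, with 95% exact binomial intervals for counting error. The dashed line marks equal arms: the allografts lie between 1.23 and 1.62, the isografts between 0.862 and 1.39 and the normal corneas between 0.486 and 0.978.

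As a share of both arms, miR-142-3p made up 59.4% ± 3.65 in allografts, 51.8% ± 5.96 in isografts and 43.3% ± 9.19 in normal corneas (SD, n = 3 each). The log2 arm ratio, with 0.1 RPM added to each arm, was tested among 62 hairpins. In these, each arm reached 5 RPM in 3 or more libraries. miR-142 met this through the grafts alone, since both arms lay under 5 RPM in every normal cornea. Its log2 arm ratio differed by 0.94 for allografts over normal corneas (SE 0.30), which did not pass the threshold (limma, adjusted p = 0.053). In that comparison 12.9% of the 62 hairpins passed and 38.7% had no overlap between groups in either direction. An exact permutation test gave p = 0.10, the smallest that 3 libraries against 3 allow. Over the 3 groups at once the exact permutation p was 0.050, where 0.0036 was the smallest possible. The difference was 0.45 for allografts over isografts (SE 0.30, limma adjusted p = 0.33, exact permutation p = 0.20), where 4.84% of hairpins passed and 21.0% had no overlap. It was 0.49 for isografts over normal corneas (SE 0.30, limma adjusted p = 0.45, exact permutation p = 0.40), where 21.0% had no overlap. Isografts over normal corneas gave 0 hairpins past the threshold (0.00%) with limma, 10 at an unadjusted p under 0.05, and 0 with edgeR on the recovered reads.

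Among the 62 hairpins, the shift of miR-142 toward its 3p arm in allografts over normal corneas was the second largest toward 3p and the seventh largest in size, against a median size of 0.38. The 5 largest shifts past the threshold were -2.34 for miR-503, -1.94 for miR-322, -1.26 for miR-455, 1.05 for miR-31a and -0.80 for miR-340, where a negative value is a shift toward the 5p arm. The group mean of the log2 arm ratio had opposite signs in allografts and normal corneas for 4 of the 62 hairpins, namely miR-142, miR-503, miR-455 and miR-362.

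Other miRNAs of white blood cells were set beside miR-142. Of 13 on a list of them 10 were tested, and 8 rose in allografts over normal corneas, 8 in allografts over isografts and 7 in isografts over normal corneas, where 23.1%, 13.5% and 16.7% of all miRNAs tested rose. Their median log2 fold changes were 4.04, 2.15 and 1.70, against -0.14, -0.29 and 0.05 over all miRNAs tested. miR-181a-5p and miR-181b-5p, which lymphocytes and many other tissues make, did not pass in any of the 3 comparisons, with log2 fold changes between -0.48 and 0.01. The third miRNA short of the threshold in isografts over normal corneas was miR-342-3p, abundant in lymphocytes, at 0.44 (SE 0.38). The summed level of the 13 ran from 5247 to 10044 RPM in allografts, from 1649 to 3733 RPM in isografts and from 1932 to 2198 RPM in normal corneas. The sum of isograft 12, 1649 RPM, was below that of every normal cornea. miR-181a-5p was the largest item of the sum in normal corneas, at 1291 to 1527 RPM.

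In allografts over normal corneas miR-142-3p rose more than each of the 280 other miRNAs tested, and the difference passed for 279 of them (99.6%), with its own 5p arm as the exception (limma on the difference, adjusted p = 0.070). In allografts over isografts the difference passed for 276 of 280 (98.6%). The 4 exceptions were miR-142-5p, the lymphocyte miRNA miR-150-5p, miR-363-3p and miR-17-2-3p. In isografts over normal corneas it passed for 253 (90.4%). There the stromal miRNA miR-10a-5p rose more than miR-142-3p, with a difference of -0.94 (SE 0.45, limma adjusted p = 0.041, and 0.17 without moderation across miRNAs). The spread of miR-142-3p itself enters every such difference, so these tests are not independent of one another. Fitted singly without moderation, which gave lower p-values for some miRNAs and higher ones for others, the counts were 280, 274 and 252.

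The level of miR-142-3p was also read relative to other leukocyte miRNAs in the same library. miR-223-3p, a miRNA of neutrophils and other myeloid cells, stood at 252, 415 and 492 RPM in allografts, at 46.6, 99.5 and 101 RPM in isografts and at 9.17, 6.00 and 5.45 RPM in normal corneas. There were 1.76, 1.12 and 1.36 RPM of miR-142-3p per RPM of miR-223-3p in allografts 12, 34 and 56, 0.242, 0.478 and 0.343 in isografts and 0.436, 0.273 and 0.517 in normal corneas. Isografts and normal corneas overlapped in this ratio and allografts lay above both. Allografts also lay above both per RPM of miR-155-5p, miR-146a-5p and miR-342-3p, so that was not particular to miR-223-3p. Per RPM of miR-150-5p and of miR-511-3p they overlapped another group. miR-142-3p rose more than miR-223-3p by 1.98 in allografts over isografts (SE 0.45, limma adjusted p = 1.3e-05; 0.00069 without moderation). In isografts over normal corneas the difference was -0.44 (SE 0.45, limma adjusted p = 0.34; 0.20 without moderation). That difference was -0.22 without isograft 12, -0.67 without isograft 34 and -0.29 without normal 56, and it passed at -0.76 with 5 RPM added in place of 1 (adjusted p = 0.021).

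miR-150-5p, a miRNA of mature lymphocytes, gave another order. It stood at 989, 863 and 1820 RPM in allografts, at 53.6, 79.7 and 106 RPM in isografts and at 32.7, 30.1 and 26.9 RPM in normal corneas. There were 0.448, 0.539 and 0.367 RPM of miR-142-3p per RPM of miR-150-5p in allografts, 0.210, 0.596 and 0.326 in isografts and 0.122, 0.0544 and 0.105 in normal corneas. Here the allografts and isografts overlapped and both lay above the normal corneas. miR-142-3p rose more than miR-150-5p by 1.57 in isografts over normal corneas (SE 0.44, limma adjusted p = 0.00047; 0.011 without moderation). In allografts over isografts the difference was 0.33 (SE 0.44, limma adjusted p = 0.46, and 0.46 without moderation), and -0.14 without isograft 12 and allograft 34. miR-342-3p, also abundant in lymphocytes, did not give this order. miR-142-3p stood at 6.49 to 8.20 RPM per RPM of it in allografts, 0.753 to 2.54 in isografts and 0.157 to 0.295 in normal corneas. In allografts over isografts miR-142-3p rose more than miR-342-3p by 2.21 (SE 0.46, limma adjusted p = 1.9e-06, and 0.0026 without moderation). It rose more than miR-150-3p, the other arm, by 1.57 there (SE 0.45, limma adjusted p = 0.00049, and 0.013 without moderation).

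**Figure D4:**
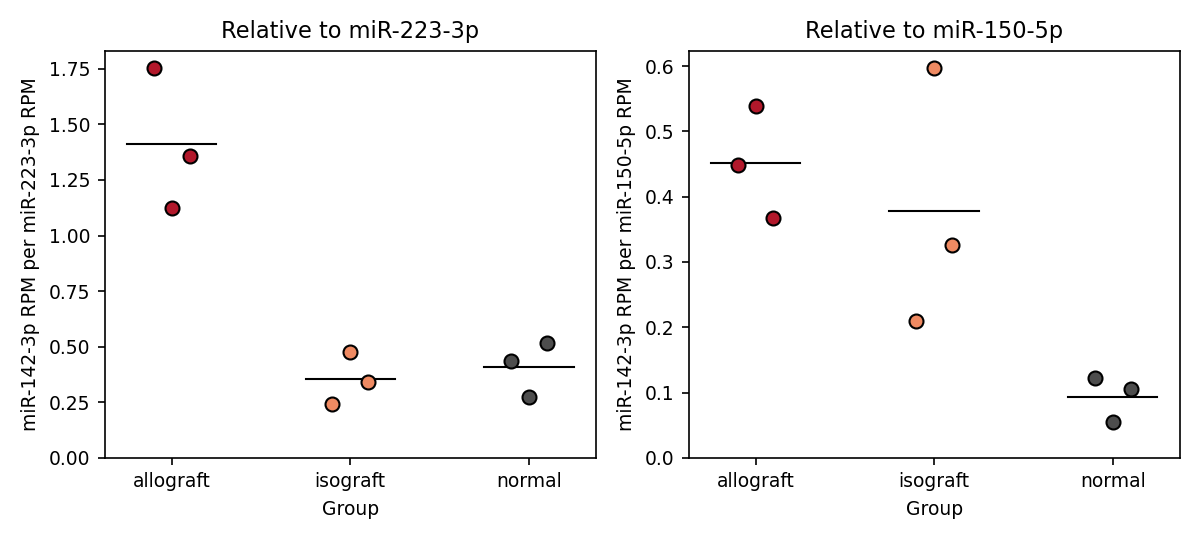
RPM of miR-142-3p per RPM of miR-223-3p (left) and per RPM of miR-150-5p (right) in each library, with the group mean as a line. Per miR-223-3p the allografts (1.12 to 1.76) lie above isografts and normal corneas, and per miR-150-5p the normal corneas (0.0544 to 0.122) lie below both grafts.

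Against miR-155-5p, which is induced when leukocytes are activated, miR-142-3p stood at 1.31, 1.82 and 1.40 RPM per RPM in allografts, at 0.359, 0.856 and 0.681 in isografts and at 0.587, 0.247 and 0.365 in normal corneas. The difference in change was 1.30 in allografts over isografts (SE 0.46, limma adjusted p = 0.0043; 0.014 without moderation), and 0.82 (adjusted p = 0.12) without isograft 12 and allograft 34. It was 0.40 in isografts over normal corneas (SE 0.46, limma adjusted p = 0.39, and 0.34 without moderation).

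Red blood cell miRNAs were read in the same libraries. miR-451-5p, made in red blood cells, stood at 3.82, 120 and 3.27 RPM in allografts 12, 34 and 56, at 69.5, 3.00 and 5.91 RPM in isografts and at 121, 31.9 and 141 RPM in normal corneas. The groups overlapped, with allograft 34 and isograft 12 the highest of their groups. The log2 fold change of miR-451-5p was -2.61 in allografts over normal corneas (SE 0.88, limma adjusted p = 0.016). In isografts over normal corneas it was -2.73 (SE 0.88, limma adjusted p = 0.025). Both SEs are moderated across miRNAs and understate the spread of miR-451-5p between libraries, so these falls are uncertain. For its difference from miR-142-3p in allografts over normal corneas, the SE was 0.46 with moderation and 2.08 without. The only other red blood cell miRNA tested, miR-486, passed in no comparison. The summed level of the 4 red blood cell miRNAs ran from 18.5 to 1068 RPM in allografts, from 14.0 to 181 RPM in isografts and from 82.4 to 343 RPM in normal corneas. Of 12 epithelial miRNAs, 11 fell in allografts over normal corneas, 5 in allografts over isografts and 4 in isografts over normal corneas, where 24.2%, 21.0% and 4.63% of all miRNAs tested fell. The summed level of the 12 ran from 38194 to 92918 RPM in allografts, from 162160 to 197808 RPM in isografts and from 274968 to 425400 RPM in normal corneas. The part of residual blood or of the tissue's make-up in the miR-142 values was not tested.

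Stromal and endothelial miRNAs were read as markers of the other cells of the grafts. Of 7 stromal miRNAs, 5 rose in allografts and 6 in isografts over normal corneas, where 23.1% and 16.7% of all miRNAs tested rose (limma, at the threshold used for the arms). In allografts over isografts 2 of the 7 fell, near the 21.0% of all miRNAs tested. The endothelial pair miR-126a-3p and miR-126a-5p rose in both grafts over normal corneas, and in allografts over isografts they stood at -0.13 (SE 0.41) and 0.36 (SE 0.51).

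The profiles most like that of miR-142-3p across the 9 libraries, by Pearson correlation of log2(RPM + 1), were those of miR-146b-3p (0.995), miR-155-5p (0.991), miR-146b-5p (0.988), miR-511-3p (0.984), miR-223-5p (0.983), miR-21-3p (0.982), miR-146a-3p (0.981) and miR-146a-5p (0.981). The arms of miR-142 correlated with each other at 0.996, and the median correlation of miR-142-3p with all other miRNAs tested was -0.07. The 9 points are 3 groups of 3 libraries and share each library's total, so these values describe the order of the groups above all. miR-146a and miR-146b are induced by NF-kB, miR-511 is a miRNA of macrophages, and miR-21-3p is the minor arm of miR-21. For miR-142-5p the closest was again miR-146b-3p (0.997), and 7 of its 8 closest were among those 8, with miR-150-5p (0.985) in place of miR-223-5p. On the log2(RPM + 1) scale the profiles were alike in shape and not in size. That scale understates the change of low miRNAs such as miR-146b-3p, which lay under the added 1 RPM in normal corneas. miR-146b-3p stood at 9.18, 10.8 and 12.2 RPM in allografts, at 1.89, 3.27 and 3.73 RPM in isografts and at 0.726, 0.636 and 0.727 RPM in normal corneas, a change of 2.78 (SE 0.32) for allografts over normal corneas against 7.13 for miR-142-3p.

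**Figure D5:**
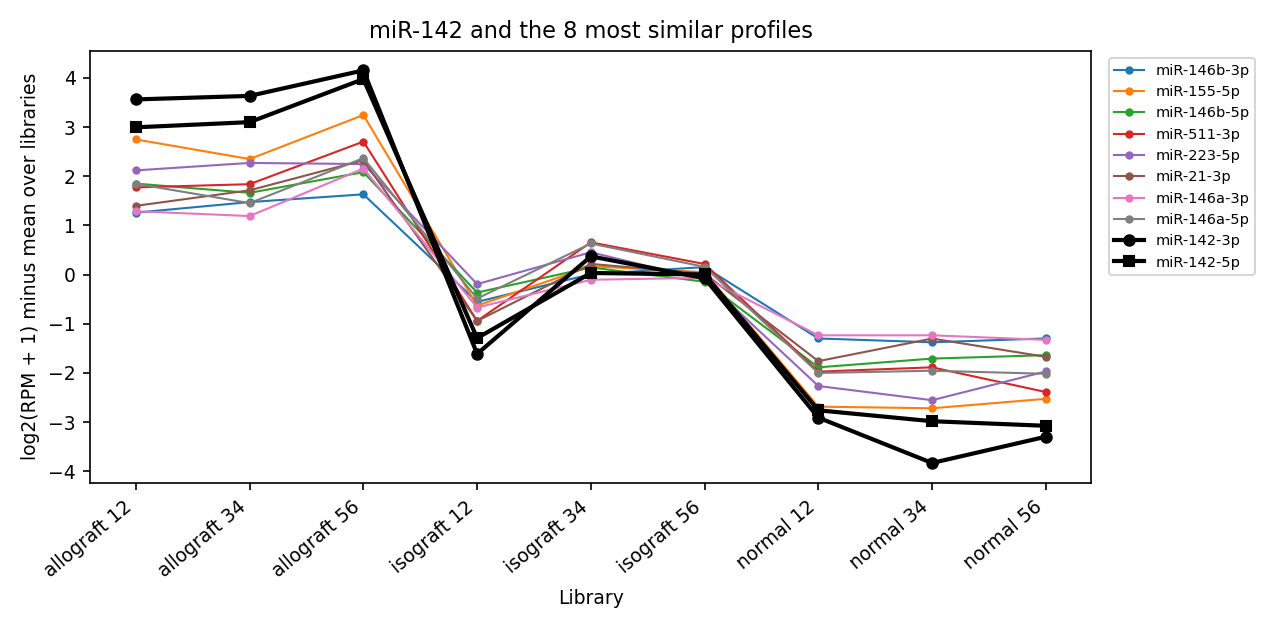
Profiles of miR-142-3p and miR-142-5p (black) and of the 8 miRNAs most correlated with miR-142-3p (colours), as log2(RPM + 1) minus each miRNA's mean over the 9 libraries. Lines join the points of 1 miRNA and imply no order of libraries; in every profile the allografts lie highest and the normal corneas lowest, with the widest span in miR-142-3p.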

How the data were processed

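Per the labels' protocols, corneal RNA was taken up in Trizol and made into libraries with Illumina's TruSeq kit for small RNA. The submitters' processing notes name bcl2fastq, BWA and the build rn6. Their versions, the adapter trimming, the annotation and how reads with variant ends were assigned are not given in the labels. The deposited values are RPM, computed by the authors; 0 columns were left without a sample. Groups came from the tissue labels and numbers from the titles.

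RPM rose in fixed steps, and 100% of values came out as whole reads within 0.1 read. No library duplicated another of its group: their counts differed by a chi-square of 52.6 to 611 per degree of freedom. The 281 miRNAs that reached 5 RPM in 3 or more libraries were tested. Both arms of miR-142 reached 5 RPM in the grafts and in no normal cornea. limma 3.58.1 (R 4.3.3) with a mean-variance trend was fitted to log2(RPM + 1) of all 9 libraries, with 6 residual degrees of freedom, Benjamini-Hochberg adjustment and a threshold of 0.05. Arm ratios used 62 of 283 hairpins with both arms listed, and differences from miR-142-3p used the same model. The scripts were tested on simulated data. Alternatives included edgeR 4.0.16 and DESeq2 1.42.0 on recovered reads. SciPy 1.17.1 gave intervals and exact tests, RNAfold 2.7.2 the fold. The miRNAs, the lists and the tests were chosen with earlier results of these data known. Named miRNAs are the 2 arms, examples from the lists, the 8 closest profiles and the 5 largest arm shifts; miR-363-3p, miR-17-2-3p and miR-362 were named after their values were seen.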

Additional observations from a re-analysis of the deposited data

How the results depend on the processing

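Both arms kept their direction and passed the threshold in all 3 comparisons under each of 23 alternatives: other pseudocounts, filters and scalings, other variance estimates, fits restricted to the groups compared, edgeR, DESeq2, the replicate block, each library left out, and isograft 12 with allograft 34 left out. miR-142-3p ran from 6.07 to 7.74 for allografts over normal corneas, from 3.63 to 4.64 for allografts over isografts and from 2.06 to 3.50 for isografts over normal corneas.

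The arm ratio of allografts over normal corneas, short of the threshold at 0.94, passed in these 8 of 19 alternatives. It was 0.88 with 0.5 RPM added (adjusted p = 0.045) and 0.83 with 1 RPM added. It was 0.94 with a 50 RPM filter (met only in allografts), limma without the trend and a fit of only the 2 groups. It was 0.88 without isograft 12 and allograft 34 and 1.06 without allograft 56 (adjusted p = 0.040). Its adjusted p ran from 0.0091 (passing without isograft 12 alone) to 0.26 over the 19. Leaving out single libraries gave a ratio of 0.63 (without normal 34) to 1.11. Without normal 34 the ratio of isografts over normal corneas was 0.18. The cause was not tested.

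Deviations of same-numbered libraries correlated from -0.51 to 0.56. Other pairs were not read, so pairing is undecided. With the replicate block the arm ratio of allografts over normal corneas stayed at 0.94 (adjusted p = 0.069) and miR-142-3p at 7.13.

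Counts of miRNAs past the threshold, 133, 97 and 60 in the order allografts over normal corneas, allografts over isografts, isografts over normal corneas, were 63, 44 and 30 with a filter at 50 RPM, by fewer miRNAs tested. Allografts over isografts gave 168 with the median of ratios, 163 with edgeR, 171 with DESeq2 and 52 to 147 with single libraries left out (52 without allograft 34, 147 without isograft 12). Isografts over normal corneas gave 115 with the median of ratios, 122 per listed miRNA, 114 with edgeR and 119 with DESeq2. Counts of miRNAs that changed less than miR-142-3p were 604, 600 and 577 without a filter and 150, 148 and 132 with that at 50 RPM, by the number tested. The fit without moderation was chosen after seeing the data. The difference from miR-150-5p in allografts over isografts ran from -0.0024 (without isograft 12) to 0.71 with single libraries left out, and turned to -0.14 without isograft 12 and allograft 34. That from miR-146a-5p in isografts over normal corneas, 0.82 and short of the threshold, turned to -0.013 with 5 RPM added and passed at 1.18 with 0.1 RPM added, at 1.11 without isograft 12 (alone or with allograft 34) and at 1.04 without normal 12 (adjusted p from 0.013 to 0.027). The normal corneas' arm ratios rest on 18 to 45 reads per arm.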
